A study of Rattus norvegicus with 12 samples.

Results

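Transcripts of 10 enzymes of sphingomyelin and ceramide metabolism were followed in rat PAC1 cells, a pulmonary artery smooth muscle cell (SMC) line. The 10 genes, out of 33294 in the count table, were 4 sphingomyelinases (Smpd1, Smpd2, Smpd3 and Smpd4), the sphingomyelin synthases Sgms1 and Sgms2, the ceramidase Asah1, the ceramide synthases Cers2 and Cers5, and the sphingosine kinase Sphk1. They were chosen by name, on the measured drop of Smpd3 in 1 of the knockdowns, MBNL KD, so that in the comparison of MBNL KD with its control each gene is described with no test. The study asked how RNA-binding proteins shape the transcriptome of SMCs as they move between a differentiated and a proliferative state, and poly(A) RNA was sequenced in 12 libraries, 3 in each of 4 groups. D1 was the differentiated culture (PAC1-D) given a control siRNA, and P the proliferative culture (PAC1-P) given the same control siRNA. RBPMS KD1 was PAC1-D with the SMC splicing regulator RBPMS depleted, and MBNL KD was PAC1-D with MBNL1 and MBNL2 depleted together. All cells received siRNA, 90 pmol, with a second treatment after 24 h and an assessment 48 h later per the labels. The study's methods give longer intervals, and which apply to these libraries was not settled. PAC1-D was split 1:10 weekly and PAC1-P more often and more thinly, so that the phenotype and the passaging regime cannot be told apart. A single siRNA is listed for each target, and all cells came from 1 cultured line.

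Sphingomyelin is an abundant lipid of the plasma membrane, and ceramide is the hub from which it is made and to which it returns. Sphingomyelinases cut sphingomyelin to ceramide, sphingomyelin synthases do the reverse transfer of a phosphocholine head group onto ceramide, ceramide synthases attach a fatty acyl chain to a sphingoid base, and ceramidases remove it. The sphingosine so released can be phosphorylated by sphingosine kinases to sphingosine 1-phosphate, a ligand of G protein-coupled receptors that is well known for its actions on vascular cells.

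The siRNAs set the knockdown groups apart from D1, so their sense strands are given first, 5′ to 3′, with no base marked. C2 is the scrambled control given to D1 and P.
C2: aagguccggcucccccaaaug
RBPMS: ggcggcaaagccgagaaggcgaaca
MBNL1: cacggaauguaaauuugcauu
MBNL2: gaagaguaauugccugcuuuu
The siRNA targets were checked first in every library, in scaled counts (raw counts divided by each library's effective size relative to the mean library). Rbpms stood at 13605, 13880 and 12552 in D1 and at 3310, 3296 and 3406 in RBPMS KD1, 3.99-fold lower (SE 0.035 on the log2 scale, adjusted p = 1.1e-25, Benjamini-Hochberg adjusted in edgeR's quasi-likelihood test, called edgeR from here on). Mbnl1 was at 23.7% and Mbnl2 at 29.5% of their D1 means in MBNL KD, where each library lay below all D1 libraries. Every knockdown library therefore matched its label for the targeted gene.

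The promoters of the synthase pair are shown because Sgms1 and Sgms2 moved in the same direction in P and, in the opposite direction, in RBPMS KD1. The sequences are RefSeq's, on GRCr8, whereas the counts were made on mRatBN7.2, and cover 250 bases before and 50 after an annotated start. Of the 10 enzymes, 8 matched an entry of the promoter table, and Smpd3 and Asah1 did not. Capitals mark GGAATG, the core of TEAD sites.
Sgms1, chr1:239672844-239673143, minus strand: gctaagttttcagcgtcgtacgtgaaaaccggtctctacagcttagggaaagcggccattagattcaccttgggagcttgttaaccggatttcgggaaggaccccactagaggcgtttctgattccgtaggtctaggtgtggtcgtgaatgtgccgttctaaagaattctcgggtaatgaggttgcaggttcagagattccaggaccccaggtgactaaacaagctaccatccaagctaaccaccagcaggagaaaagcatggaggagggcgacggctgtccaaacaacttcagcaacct
Sgms2, chr2:222590758-222591057, minus strand: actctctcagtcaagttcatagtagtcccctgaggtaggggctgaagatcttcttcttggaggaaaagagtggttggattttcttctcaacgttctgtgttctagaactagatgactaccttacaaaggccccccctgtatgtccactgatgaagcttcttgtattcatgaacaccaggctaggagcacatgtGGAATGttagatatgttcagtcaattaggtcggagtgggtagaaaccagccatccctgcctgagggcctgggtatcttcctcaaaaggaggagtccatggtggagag
The Sgms1 window had 51.0% GC and 14 CG dinucleotides and the Sgms2 window 47.7% GC and 2, against a median of 51.7% GC over 33469 promoters. Both strands of each window were searched for 6 motifs, and Sgms2 held 1 TEAD match while Sgms1 held none of the 6. That TEAD core was present in 14.2% of all promoters. The E-box, spelled CACGTG, was present in 6.42% of the promoters in the table. For AP-1 sites the letters searched were TGACTCA, and 4.63% of the promoters held them. The GC box was searched as GGGCGG, which 33.1% of the promoters held. A TATA box, taken as TATAAA, was found in 14.2% of the promoters. The CArG box of SMC promoters, which can enclose a TATA box, was found in 1.64%. A match of this kind describes letters in a window and not a bound site.

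Total counts per library lay between 80842635 and 90771289, with the lowest in MBNL KD replicate 3. That library also stood apart from its replicates, with a chi-square per degree of freedom of at least 13.9 against each of them, where all other pairs of replicates gave 3.82 to 8.29. All 10 enzymes passed the filter on low counts in every comparison, and the lowest raw count of any enzyme in any library was 492, for Smpd3 in that library. The 8 smooth muscle markers looked at summed to 9420 to 9840 CPM (counts scaled to library size) in D1, 227 to 241 in P, 4770 to 4890 in RBPMS KD1 and 7820 to 7910 in MBNL KD. Acta2 and Tagln made up most of the sum in D1 and in both knockdowns. In P and RBPMS KD1 all 8 markers were below their D1 means, whereas in MBNL KD 6 were below and Myh11 (144%) and Cnn1 (108%) above. Markers of other lineages differed between groups too. Summed chondrocyte and osteoblast markers (7 genes) were at 6.88 to 9.08 CPM in D1, 544 to 573 in P, 8.34 to 8.84 in RBPMS KD1 and 16.1 to 16.7 in MBNL KD. The sum in P was nearly all Acan, a cartilage proteoglycan (mean 43331 scaled counts, against 92.9 in D1), Sox9 and Runx2 were also above D1 there at 440% and 313%, and Col2a1, Sp7 and Bglap, at means of 7.25 or fewer in P, were below D1. In MBNL KD Runx2 was at 407% of D1, above its level in P, Acan at 189% and Sox9 at 160%, and the other members had means of 7.82 or fewer. Summed proliferation markers (5 genes) were at 709 to 732 CPM in D1, 986 to 1020 in P, 592 to 617 in RBPMS KD1 and 492 to 493 in MBNL KD. Endothelial markers (6 genes) were low throughout but highest in P, with sums of 0.721 to 0.787 CPM in D1, 5.91 to 7.35 in P, 1.76 to 1.82 in RBPMS KD1 and 0.940 to 1.44 in MBNL KD. Tek, an endothelial receptor, was at 1320% of D1 in P (log2 fold change 3.71, SE 0.18, adjusted p = 6.4e-19, edgeR), and Cdh5, the endothelial cadherin, had 126, 138 and 122 raw counts in P and 0 in the 9 other libraries. The rises were not confined to P. Tek was at 250% and Vwf at 233% of D1 in RBPMS KD1, where Vwf was at 247% in P. Pecam1, with means of 8.72 or fewer, was higher in both knockdowns than in P, and Kdr and Tie1 had means of 3.78 or fewer in every group. Macrophage and leukocyte markers (6 genes, Adgre1 at 3 counts or fewer in every library) summed to 82.4 to 84.4 CPM in RBPMS KD1 and 52.5 to 60.2 elsewhere, nearly all from Cd14 (143% of D1 in RBPMS KD1). The other members had low counts, among them Csf1r, at 246% of D1 in MBNL KD, and Cd68, at 98.9% in RBPMS KD1. Fibroblast markers (6 genes), which cultured SMCs also express, summed to 21700 to 22500 CPM in D1, 26500 to 28500 in P, 29500 to 31100 in RBPMS KD1 and 24400 to 24900 in MBNL KD. Col1a1 and Col1a2 made up nearly all of these sums, and the members did not move together. Col1a2 was at 79.6% of D1 and Pdgfra at 81.8% in P, whereas in MBNL KD Col1a2 was at 139%, Col1a1 at 89.6%, Lum at 63.3% and Dcn at 42.1%. Their part in the results below was not tested, and in such bulk RNA a shift in the share of cells of one type and a shift in RNA per cell cannot be told apart. Below, a transcript is said to have risen or fallen where its adjusted p was under 0.05. The labels do not say whether the replicates were separate cultures. The study's methods, on siRNA knockdown in PAC1 cells, give at least 3 biological replicates for each condition. If these libraries were not such replicates, the p-values measure technical spread only.

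Smpd3, which encodes neutral sphingomyelinase 2, an enzyme that generates ceramide at the plasma membrane and Golgi, spanned by far the widest range of the 10. It stood at 13275, 13776 and 13574 scaled counts in D1, at 1161, 1136 and 1108 in P, at 16928, 17395 and 17433 in RBPMS KD1, and at 628, 624 and 537 in MBNL KD. The 4 groups did not overlap, with RBPMS KD1 on top and MBNL KD at the bottom, and the highest and lowest group means were 28.9-fold apart. Smpd3 fell in P to 8.38% of its D1 mean (log2 fold change -3.58, SE 0.034, adjusted p = 2.8e-39, edgeR over 16814 genes), the 214th largest decrease among the genes tested. In RBPMS KD1 it rose slightly, to 127% of D1 (log2 fold change 0.35, SE 0.026, adjusted p = 2.1e-12, edgeR over 15904 genes). The MBNL KD libraries held 4.40% of the D1 mean (log2 fold change -4.49, SE 0.040), the value that chose these genes, and only 3 of the 16053 genes compared had a lower fold change. The lowest value, 537, came from MBNL KD replicate 3, without which the log2 fold change was -4.43. MBNL KD and P thus sat on one side of D1 and RBPMS KD1 on the other. The difference between P and RBPMS KD1, in which D1 plays no part, was -3.95 on the log2 scale (SE 0.035, adjusted p = 5.9e-41, edgeR).

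**Figure D1:**
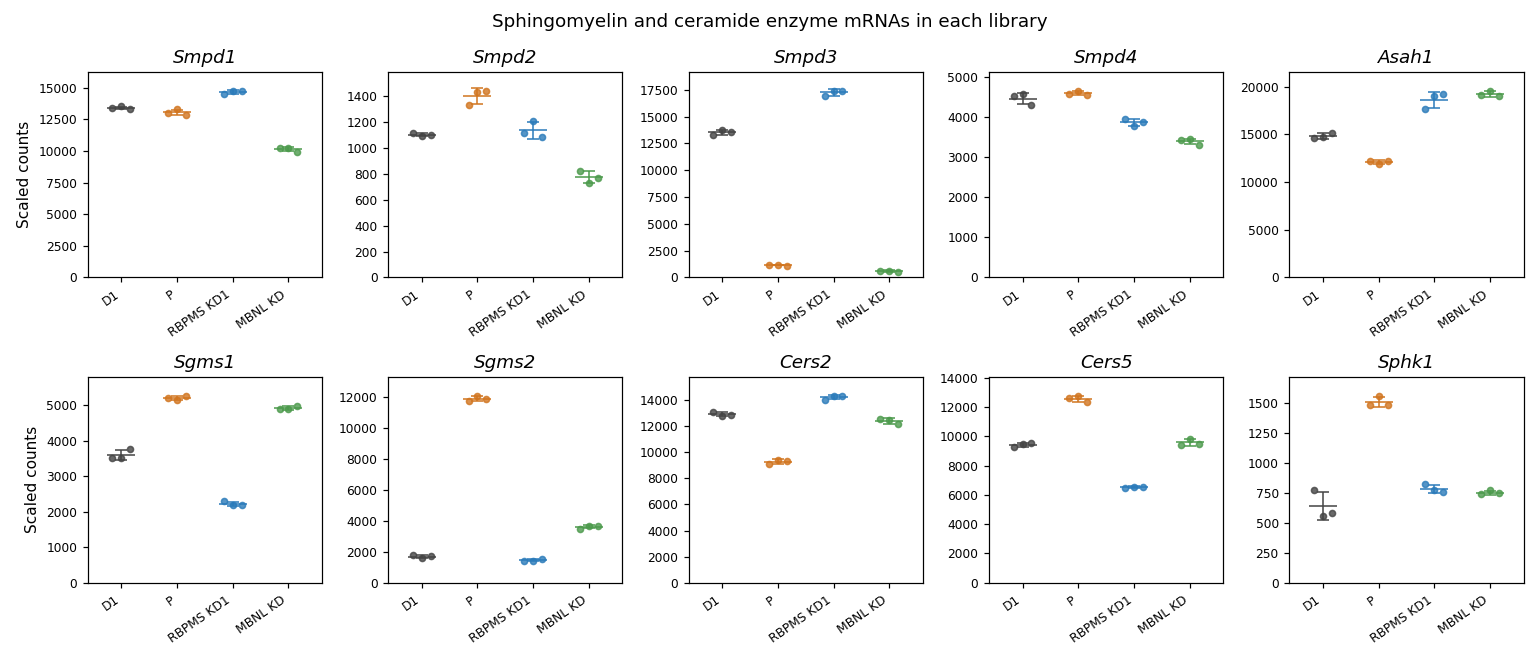
Scaled counts (linear axis from 0) of the 10 enzymes in each of the 12 libraries, with 1 panel per gene and its own axis; points are libraries, horizontal bars the group mean and whiskers 1 SD (n = 3). Smpd3 lies between 537 and 1161 in the P and MBNL KD libraries and between 13275 and 17433 in the D1 and RBPMS KD1 libraries, while Sgms2 is highest in P at 11761 to 12079.

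The other 3 sphingomyelinases covered a far narrower range. Smpd1 encodes the acid sphingomyelinase of lysosomes. Its scaled counts were 13373, 13527 and 13329 in D1, 13020, 13298 and 12840 in P, 14521, 14789 and 14751 in RBPMS KD1, and 10234, 10230 and 9957 in MBNL KD. The P libraries lay just under the D1 libraries, and the test did not separate them (log2 fold change -0.04, 95% interval -0.09 to 0.01, adjusted p = 0.15 in edgeR), with a value of 0.007 under quantile normalization and 0.0076 in limma on the authors' normalised values, and -0.025 without P replicate 3. Smpd1 was higher in RBPMS KD1 by 0.13 on the log2 scale (SE 0.025, adjusted p = 4.7e-05, edgeR) and stood at 75.6% of D1 in MBNL KD (log2 fold change -0.40, SE 0.023). Smpd2, a neutral sphingomyelinase of the endoplasmic reticulum, gave 1116, 1094 and 1098 scaled counts in D1, 1335, 1432 and 1445 in P, 1120, 1210 and 1084 in RBPMS KD1, and 823, 731 and 772 in MBNL KD. P was the high group and MBNL KD the low one, and RBPMS KD1 overlapped D1. Smpd2 rose in P (log2 fold change 0.35, SE 0.054, adjusted p = 7.1e-07, edgeR), and its value in RBPMS KD1 was 0.05 (95% interval -0.07 to 0.16, adjusted p = 0.51), from 0.0011 without RBPMS KD1 replicate 2 to 0.081 without its replicate 3. In MBNL KD it was at 70.3% of the D1 mean (log2 fold change -0.50, SE 0.062).

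Smpd4, a neutral sphingomyelinase found at the nuclear envelope and endoplasmic reticulum, had 4519, 4576 and 4302 scaled counts in D1, 4577, 4666 and 4559 in P, 3963, 3788 and 3870 in RBPMS KD1, and 3424, 3449 and 3318 in MBNL KD. P overlapped D1 (log2 fold change 0.04, 95% interval -0.02 to 0.11, adjusted p = 0.25 in edgeR), though it passed at 0.08 under quantile normalization (adjusted p = 0.0329) and in limma on the authors' normalised values (adjusted p = 0.0447), and stood at 0.01 without D1 replicate 3. Both knockdowns lay below all D1 libraries. Smpd4 fell in RBPMS KD1 by 0.20 on the log2 scale (SE 0.035, adjusted p = 1.3e-05, edgeR), and in MBNL KD its log2 fold change was -0.39 (SE 0.035). Smpd1, Smpd2 and Smpd4 thus all stood between 70.3% and 76.1% of their D1 means in MBNL KD, where Smpd3 was at 4.40%. Within single libraries the count of Smpd3 was 11.9, 12.6 and 12.4 times that of Smpd2 in D1, 0.870, 0.794 and 0.767 times in P, 15.1, 14.4 and 16.1 times in RBPMS KD1 and 0.763, 0.854 and 0.695 times in MBNL KD. These ratios serve to compare groups, since counts are not corrected for transcript length and do not rank one gene above another.

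Sgms2 encodes the sphingomyelin synthase of the plasma membrane and rose most of the 10 enzymes in P. Its scaled counts were 1767, 1596 and 1691 in D1, 11761, 12079 and 11864 in P, 1415, 1425 and 1527 in RBPMS KD1, and 3495, 3688 and 3668 in MBNL KD. Every P library was above every other library, MBNL KD came next, and RBPMS KD1 lay below all D1 libraries. The increase in P was 7.06-fold (log2 fold change 2.82, SE 0.034, adjusted p = 4.1e-36, edgeR). In RBPMS KD1 Sgms2 fell by 0.21 on the log2 scale (SE 0.052, adjusted p = 0.0010, edgeR), and in MBNL KD it stood at 215% of the D1 mean (log2 fold change 1.11, SE 0.043, and 1.1 without MBNL KD replicate 3).

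Sgms1, the sphingomyelin synthase of the Golgi, followed the same order of groups over a smaller range. It had 3508, 3502 and 3751 scaled counts in D1, 5195, 5149 and 5262 in P, 2285, 2173 and 2195 in RBPMS KD1, and 4901, 4885 and 4977 in MBNL KD. No 2 groups overlapped. Sgms1 rose in P (log2 fold change 0.54, SE 0.034, adjusted p = 1.0e-15, edgeR) and fell in RBPMS KD1 to 61.8% of its D1 mean (log2 fold change -0.69, SE 0.041, adjusted p = 1.2e-14), the largest change of any of the 10 enzymes in that knockdown. In MBNL KD it was at 137% of D1 (log2 fold change 0.46, SE 0.034). P exceeded RBPMS KD1 by 1.20 on the log2 scale for Sgms1 (SE 0.037, adjusted p = 4.8e-25) and by 3.01 for Sgms2 (SE 0.036, adjusted p = 4.4e-37), both in edgeR.

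The balance of the synthase pair can be read within each library, where library size cancels. The ratio of Sgms2 to Sgms1 counts was 0.504, 0.456 and 0.451 in D1, 2.26, 2.35 and 2.25 in P, 0.619, 0.656 and 0.695 in RBPMS KD1, and 0.713, 0.755 and 0.737 in MBNL KD. The ratio was above D1 in all 9 other libraries, 4.87-fold in P on average and 1.40-fold in RBPMS KD1, where both transcripts fell and Sgms1 more so. An exact two-sided permutation test gave p = 0.1 for P and for RBPMS KD1 against D1, the smallest value that 3 libraries against 3 allow, so no ratio can pass 0.05 here. In each of these comparisons 4 such ratios were tested and all gave the same p, which Benjamini-Hochberg adjustment leaves at 0.1.

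**Figure D2:**
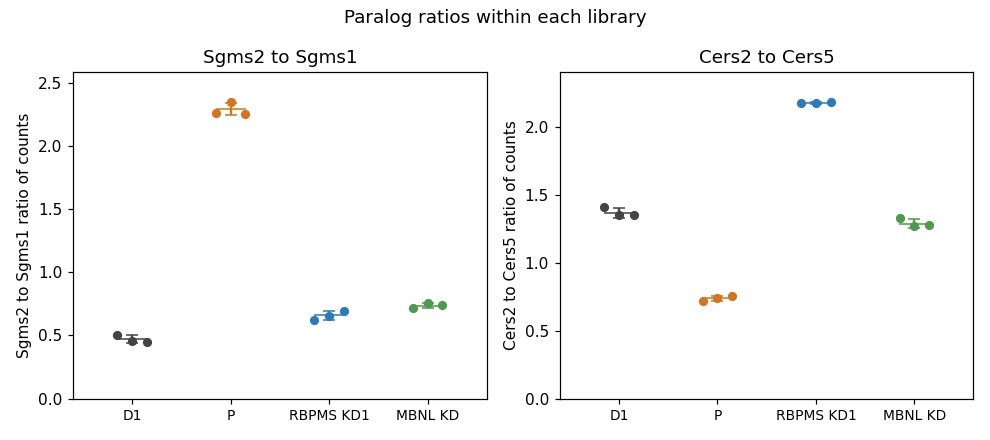
Ratio of raw counts of Sgms2 to Sgms1 (left) and of Cers2 to Cers5 (right) within each library, on linear axes from 0; points are libraries, horizontal bars the group mean and whiskers 1 SD (n = 3). The Sgms2 to Sgms1 ratio is 2.25 to 2.35 in P and at most 0.755 elsewhere, and the Cers2 to Cers5 ratio runs from 0.738 on average in P to 2.18 in RBPMS KD1.

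Of the ceramide synthases, Cers2 makes ceramides with very long acyl chains and Cers5 mainly those with palmitoyl chains. Cers2 was at 13110, 12808 and 12849 scaled counts in D1, 9072, 9448 and 9329 in P, 14039, 14312 and 14347 in RBPMS KD1, and 12554, 12484 and 12186 in MBNL KD. P lay well below the other groups, RBPMS KD1 above them, and MBNL KD just below D1. Cers2 fell in P to 71.8% of D1 (log2 fold change -0.48, SE 0.026, adjusted p = 2.1e-17, edgeR) and rose by 0.14 in RBPMS KD1 (SE 0.026, adjusted p = 2.6e-05). Its log2 fold change in MBNL KD was -0.05 (SE 0.022), and it turned to 0.03 both under quantile normalization and in limma on the authors' normalised values.

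Cers5 went the other way in both tested comparisons. It had 9273, 9489 and 9549 scaled counts in D1, 12598, 12782 and 12382 in P, 6442, 6560 and 6555 in RBPMS KD1, and 9426, 9849 and 9508 in MBNL KD. MBNL KD overlapped D1, whereas P lay above and RBPMS KD1 below both. Cers5 rose by 0.41 in P (SE 0.026, adjusted p = 9.0e-16) and fell by 0.53 in RBPMS KD1 (SE 0.028, adjusted p = 1.1e-15) on the log2 scale, in edgeR. The ratio of Cers2 to Cers5 counts within a library was 1.41, 1.35 and 1.35 in D1, 0.720, 0.739 and 0.753 in P, 2.18, 2.18 and 2.19 in RBPMS KD1, and 1.33, 1.27 and 1.28 in MBNL KD. It was lowest in all P libraries and highest in all RBPMS KD1 libraries, with the exact permutation p = 0.1 given above for each against D1.

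Asah1 encodes acid ceramidase, which acts on ceramide in lysosomes. Its scaled counts were 14606, 14726 and 15187 in D1, 12184, 11871 and 12199 in P, 17694, 19009 and 19204 in RBPMS KD1, and 19089, 19597 and 19000 in MBNL KD. P was the lowest group and the knockdowns were the highest, overlapping each other. Asah1 fell by 0.30 in P (SE 0.026, adjusted p = 2.5e-12) and rose by 0.33 in RBPMS KD1 (SE 0.029, adjusted p = 8.4e-11) on the log2 scale, in edgeR, and the log2 fold change in MBNL KD was 0.38 (SE 0.025). The ratio of Smpd1 to Asah1 counts, a pair of lysosomal enzymes acting in succession, was 0.916, 0.919 and 0.878 in D1, 1.07, 1.12 and 1.05 in P, 0.821, 0.778 and 0.768 in RBPMS KD1, and 0.536, 0.522 and 0.524 in MBNL KD. The MBNL KD libraries held the lowest ratios of the 12 and the P libraries the highest.

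Sphk1, the cytosolic sphingosine kinase, was the most variable of the 10 in D1. It stood at 776, 561 and 581 scaled counts in D1, 1482, 1562 and 1485 in P, 821, 774 and 759 in RBPMS KD1, and 739, 772 and 747 in MBNL KD. D1 replicate 1 lay among the knockdown libraries, and the coefficient of variation in D1 was 18.7%, against 0.774% to 5.10% for the other 9 enzymes in D1. Sphk1 rose 2.36-fold in P (log2 fold change 1.24, SE 0.077, adjusted p = 4.5e-16, edgeR), and without D1 replicate 1 the value was 1.40. In RBPMS KD1 its log2 fold change was 0.30 (SE 0.088, adjusted p = 0.0047), with overlapping libraries. The call on adjusted p was lost in limma on the authors' normalised values (adjusted p = 0.084) and without D1 replicate 2 (0.21, adjusted p = 0.0504), and the value was 0.46 without D1 replicate 1 (adjusted p = 1.0e-05). In MBNL KD the log2 fold change was 0.24 (SE 0.088), 0.40 without D1 replicate 1, 0.15 without D1 replicate 2 and 0.17 without D1 replicate 3.

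**Figure D3:**
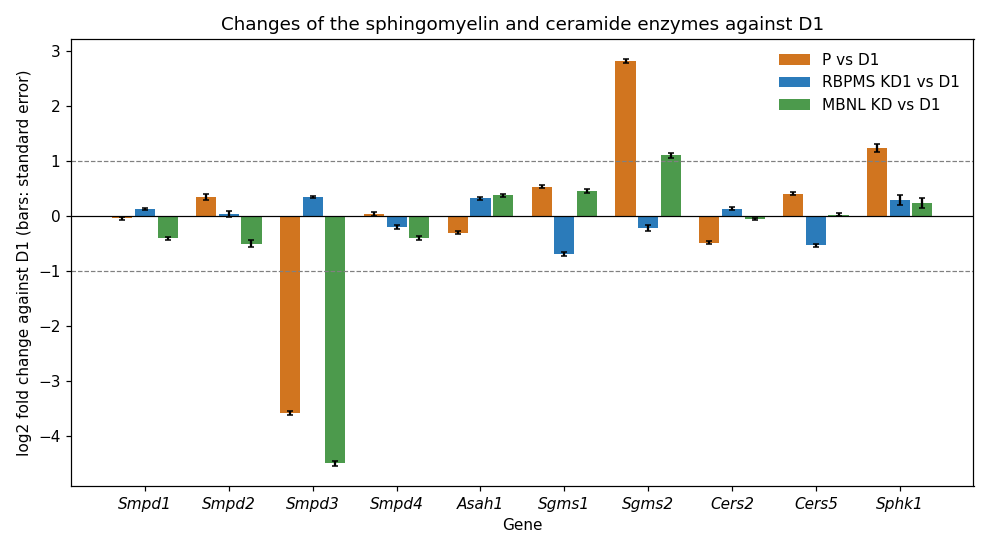
Log2 fold change of the 10 enzymes against D1 in P, RBPMS KD1 and MBNL KD (bars), with the standard error of each fit as whiskers; dashed lines mark a log2 fold change of -1 and 1. The longest bars are Smpd3 in MBNL KD (-4.49) and in P (-3.58) and Sgms2 in P (2.82), and all RBPMS KD1 bars lie between -0.69 and 0.35.

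Counted together, 3 of the 10 enzymes passed both thresholds used here, namely 0.05 for the adjusted p and 1 for the size of the log2 fold change, in P against D1. Sgms2 and Sphk1 were higher and Smpd3 was lower, where 16.4% of all genes tested were higher and 11.2% lower. By the adjusted p alone 5 rose and 3 fell (backgrounds 40.4% and 37.6%), a share close to that of all genes. The median absolute log2 fold change was 0.45 over the 10 and 0.46 over all genes tested. In RBPMS KD1 against D1 none of the 10 passed both thresholds, in edgeR, DESeq2 or limma alike (backgrounds 3.06% higher and 1.62% lower). There 9 had an unadjusted p under 0.05 in edgeR, and by the adjusted p alone 5 rose and 4 fell (backgrounds 29.5% in each direction). The median absolute log2 fold change was 0.25, against 0.23 over all genes.

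In MBNL KD against D1, the comparison behind the choice of genes, the log2 fold change was above 1 for Sgms2 and below -1 for Smpd3, as for 6.27% and 4.26% of all genes compared, from which nothing is read, and the median absolute log2 fold change was 0.39 over the 10 and 0.31 over all genes. P against RBPMS KD1 gave 2 higher, Sgms1 and Sgms2, and 1 lower, Smpd3, past both thresholds (backgrounds 16.1% and 13.0%). By the adjusted p alone 6 were higher in P and 4 lower (backgrounds 40.5% and 39.0%), and the median absolute log2 fold change was 0.78, against 0.51 over all genes. The enzymes that differed by less than the fold threshold were Cers5 and Sphk1 (0.92 each), Smpd2 (0.28) and Smpd4 (0.22) on the high side, and Smpd1 (-0.20), Cers2 (-0.64) and Asah1 (-0.65) on the low side. Under quantile normalization the share of all called genes that were higher moved from 59.4% to 45.8% in P, from 65.4% to 54.3% in RBPMS KD1 and from 55.4% to 45.0% in P against RBPMS KD1, while the 3, 0 and 3 enzymes called remained as many.

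A wider list of 60 other sphingolipid genes, compiled with earlier results of these data known, gave the surroundings of the 10. In P, 49 of the 60 could be tested, and 3 passed both thresholds on the high side and 4 on the low side, 14.3% in all. Among all genes tested 16.4% passed on the high side and 11.2% on the low side, which together exceed 14.3%. By the adjusted p alone 20 rose and 21 fell (backgrounds 40.4% and 37.6%). Their median absolute log2 fold change was 0.41, against 0.46 over all genes. S1pr1, a receptor for sphingosine 1-phosphate, went from 1878, 2000 and 2007 scaled counts in D1 to 60.3, 83.3 and 81.5 in P (log2 fold change -4.71, SE 0.088, adjusted p = 6.8e-31, edgeR). The D1 libraries lay far above the P libraries. Cerk, the ceramide kinase, fell from a mean of 12569 ± 135 to 4087 ± 72.6 (SD, n = 3; log2 fold change -1.62, SE 0.028, adjusted p = 1.0e-31, edgeR), and Acer2, an alkaline ceramidase of the Golgi, from 1065 ± 25.7 to 272 ± 28.1 (log2 fold change -1.97, SE 0.079, adjusted p = 2.4e-21). The genes of the list that rose alongside Sgms2 were Kdsr, the ketosphinganine reductase of ceramide synthesis, from 2693 ± 160 to 6108 ± 126 (log2 fold change 1.18, SE 0.037, adjusted p = 2.6e-24, edgeR), and Smpdl3b, a sphingomyelinase-like phosphodiesterase, from 484 ± 27.3 to 2334 ± 85.6 (log2 fold change 2.27, SE 0.058, adjusted p = 5.7e-27). Smpdl3a and Mfsd2b had low counts and are named after their values were seen. Smpdl3a had raw counts of 2, 2 and 0 in D1 and 116, 66 and 72 in P, and Mfsd2b, a sphingosine 1-phosphate exporter, 20, 25 and 23 in D1 and 9, 5 and 11 in P.

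Most of the list lay under the fold threshold in RBPMS KD1. Of 47 tested genes 1 passed both thresholds, on the high side, 2.13% (backgrounds 3.06% higher and 1.62% lower, together above that share). By the adjusted p alone 23 rose and 12 fell (backgrounds 29.5% in each direction), and the median absolute log2 fold change was 0.24 against 0.23 over all genes. The gene was Acer2, at 1038, 1069 and 1089 scaled counts in D1 and 2556, 2619 and 2668 in RBPMS KD1 (log2 fold change 1.30, SE 0.047, adjusted p = 2.2e-19, edgeR). Acer2 stood at 525, 514 and 451 in MBNL KD, 46.6% of D1, and its libraries were high in RBPMS KD1 and low in P and MBNL KD, the same order as for Smpd3 except that P lay below MBNL KD. In MBNL KD, 47 genes of the list were compared and 3 had a log2 fold change beyond 1 in size, 6.38% (backgrounds 6.27% higher and 4.26% lower, together above that share). All 3 were lower, namely Acer2, Degs1 and S1pr5. The median absolute log2 fold change was 0.29 over the list and 0.31 over all genes. Degs1, the desaturase that makes ceramide from dihydroceramide, was at 14263, 14781 and 14730 in D1 and 4387, 4045 and 3889 in MBNL KD (log2 fold change -1.82, SE 0.031), and S1pr5, another sphingosine 1-phosphate receptor named after its values were seen, at raw counts of 24, 22 and 22 and of 10, 6 and 6. Degs1 differed far less from D1 in the other groups, at 85.4% of D1 in P and 80.0% in RBPMS KD1. P against RBPMS KD1 gave 4 higher and 5 lower of 49 genes past both thresholds, 18.4% in all (backgrounds 16.1% higher and 13.0% lower, together above that share). By the adjusted p alone 14 were higher in P and 29 lower (backgrounds 40.5% and 39.0%). The median log2 fold change was -0.16, and the median absolute one 0.37 against 0.51 over all genes. The higher genes were Kdsr, Smpdl3a, Smpdl3b and B4galt6, and the lower ones S1pr1, Acer2, Cerk, Plpp3 and Mfsd2b. B4galt6 and Plpp3, named after their values were seen, were past both thresholds in no comparison with D1. B4galt6, a lactosylceramide synthase, had means of 3003 ± 119 in P and 1353 ± 44.9 in RBPMS KD1, either side of 1826 ± 87.3 in D1 (SD, n = 3; P against RBPMS KD1 log2 fold change 1.12, SE 0.046, adjusted p = 2.3e-21, edgeR). Plpp3, a lipid phosphate phosphatase, had 800.0 ± 42.8 in P and 1738 ± 31.9 in RBPMS KD1, either side of 1430 ± 83.5 in D1 (log2 fold change -1.14, SE 0.056, adjusted p = 3.7e-19, edgeR).

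**Figure D4:**
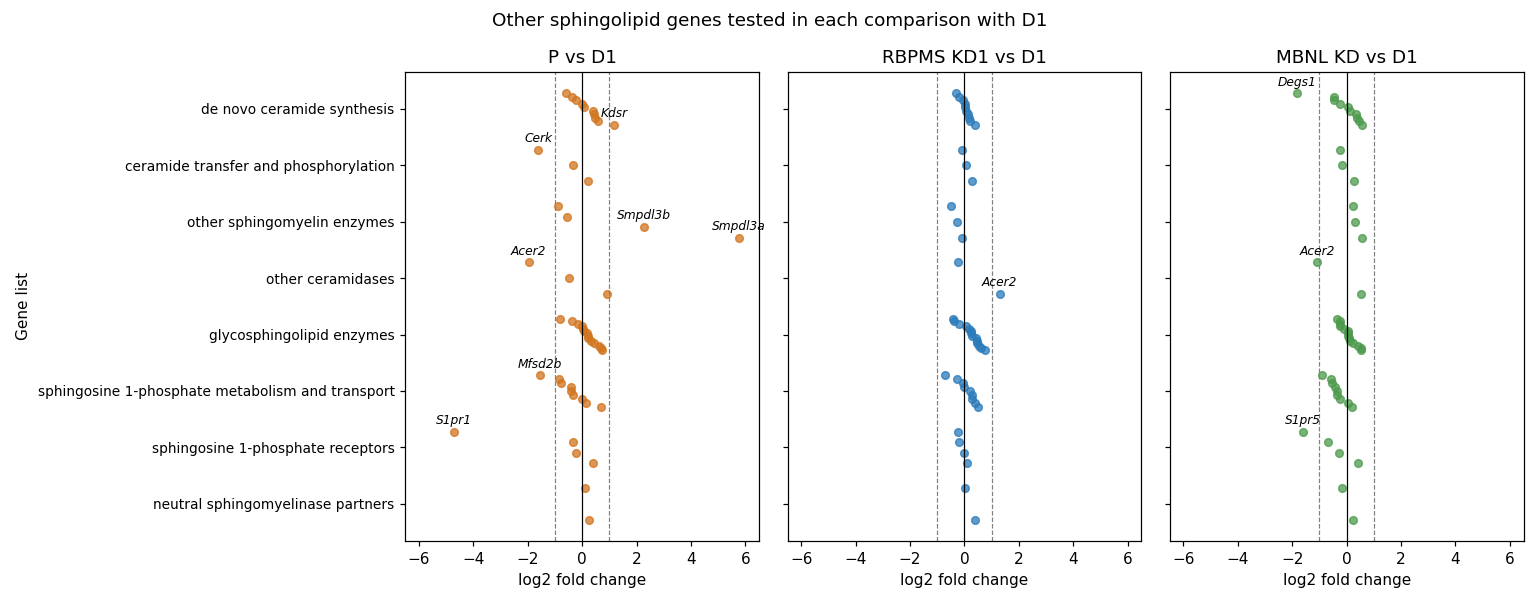
Log2 fold change of the other sphingolipid genes against D1 in P, RBPMS KD1 and MBNL KD, grouped by the lists on the vertical axis and spread within a list by size; each point is a gene, dashed lines mark -1 and 1, and genes beyond them are named. S1pr1 lies at -4.71 and Smpdl3b at 2.27 in P, Acer2 at 1.30 in RBPMS KD1 and Degs1 at -1.82 in MBNL KD; Smpdl3a is a fitted value against D1 counts of 2, 2 and 0.

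The level of Smpd3 was compared with that of 855 genes that had a mean of at least 100 scaled counts and an absolute log2 fold change above 1 in MBNL KD, over the 12 libraries on a log2 scale. The 5 closest were Pdlim1 (Pearson's r = 0.998), a cytoskeletal PDZ and LIM domain protein, Dstyk (0.996), a protein kinase, Tacc1 (0.996), a coiled-coil protein, Cpt1a (0.994), the carnitine palmitoyltransferase that admits fatty acids to mitochondria, and Adgre5 (0.992), an adhesion G protein-coupled receptor. The libraries form 4 groups, so that these values mostly describe the gap between D1 and RBPMS KD1 on one side and P and MBNL KD on the other, and carry no p. The filter also required a change in MBNL KD, the comparison that chose Smpd3, so a shift in that group was built in. Pdlim1 had means of 16546 ± 245 in D1, 5509 ± 124 in P, 17513 ± 389 in RBPMS KD1 and 3977 ± 179 in MBNL KD (SD, n = 3). Its range was smaller than that of Smpd3 at every step. The order of D1 and RBPMS KD1 was not that of Smpd3 in all 5. Adgre5 had means of 6298 ± 99.1 in D1 and 5982 ± 113 in RBPMS KD1, lower in RBPMS KD1, where Smpd3 was higher. The means of Dstyk, 4312 ± 109 and 4275 ± 24.1, and of Tacc1, 12043 ± 199 and 12079 ± 177, differed by less than the SD in D1.

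The genes on either side of Smpd3, in RefSeq's order on GRCr8, were Slc7a6, Slc7a6os and Prmt7 on one side and Zfp90, LOC100360573 and Cdh3 on the other. Their log2 fold changes in MBNL KD were -0.35 (SE 0.031), -0.04 (SE 0.050), -0.08 (SE 0.040), -0.37 (SE 0.077), 0.26 (SE 0.055) and -0.82 (SE 0.025) in that order, none beyond 1. In P, Cdh3, which encodes P-cadherin, fell by 1.95 on the log2 scale (SE 0.026, adjusted p = 5.5e-35, edgeR), Slc7a6 fell by 0.61 (adjusted p = 5.4e-18) and Prmt7 rose by 0.43 (adjusted p = 3.0e-12). Slc7a6os, Zfp90 and LOC100360573 did not pass, at 0.05, -0.07 and -0.04. In RBPMS KD1 the largest of the 6 was Zfp90 at -0.44 (adjusted p = 1.8e-05), opposite in sign to the 0.35 of Smpd3.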

How the data were processed

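Poly(A) RNA of rat PAC1 cells was measured in 12 libraries, 3 in each of the 4 groups, grouped by their treatment labels. The deposited counts are raw reads per gene symbol: the authors subsampled paired-end reads to equal depth with seqtk, aligned them with STAR 2.7.11b to mRatBN7.2 and counted them with featureCounts. The strand setting and the counting of mates are not given in the sources used here. Low counts (20 or fewer) were even 2.06 to 2.36 times as often as odd, so a count need not be 1 independent molecule. The deposited normalised values are a signal that the authors made by noise correction (noisyR) and quantile normalization, and were used in 1 alternative only.

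In R 4.3.3, edgeR 4.0.16 was run on the 6 libraries of each comparison (filterByExpr, TMM, quasi-likelihood F test, Benjamini-Hochberg adjustment over all genes tested), and genes were called where the adjusted p was below 0.05 and the log2 fold change beyond 1 in size. Standard errors are the log2 fold change over the square root of F, and 95% intervals are 1.96 standard errors. The comparisons with D1 share its libraries. The code was tested on simulated data. Alternatives were quantile normalization, the size factors of DESeq2, leaving out the filter, requiring 10 counts in every library, the Wald test of DESeq2 1.42.0, limma 3.58.1 on the log2 normalised values, 1 fit of all 12 libraries, a replicate block and leaving out each library. Total counts were 80842635 to 90771289, above the depth in reads to which the methods say each sample was subsampled. The counting precision is lower than these totals imply if both mates of a pair were counted, and 3 libraries per group limit the rest.

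The 10 members and the gene lists were chosen with earlier results of these data known. All 10 are named, as are listed genes past both thresholds against D1 (in MBNL KD past the fold threshold) whose higher group mean reached 100 scaled counts, the 5 genes most like Smpd3 and its 3 neighbours on each side. Counts were not corrected for transcript length, and splicing was not analysed here.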

Additional observations from a re-analysis of the deposited data

How the results depend on the processing

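The number of enzymes called was the same under every alternative and with each library left out in turn: 3 in P against D1, 0 in RBPMS KD1 against D1 and 3 in P against RBPMS KD1. Of 560 single-gene values, 536 kept their call by both thresholds together or, in MBNL KD, stayed within their spread, 20 in MBNL KD moved beyond it and 4 changed sign. By the adjusted p alone 4 of 420 tested values crossed 0.05, Smpd4 in P and Sphk1 in RBPMS KD1 under the alternatives named with those genes above. Those that changed sign were Smpd1 in P against D1, at 0.007 under quantile normalization and 0.0076 in limma on the authors' normalised values (main -0.04), and Cers2 in MBNL KD against D1, at 0.028 and 0.030 in the same pair of alternatives (main -0.05). Counts over all genes, here past both thresholds for MBNL KD against D1 too, where no single gene is given a p, moved by more than 1.5 times with a minimum of 10 counts in every library, to 2933 from 4641 in P against D1 and to 3154 from 4914 in P against RBPMS KD1, where fewer genes were tested, and in limma on the normalised values, to 209 from 745 in RBPMS KD1 and to 784 from 1643 in MBNL KD, where the cause was not tested. Leaving out a library gave 4757 to 4831, 739 to 783, 1657 to 1728 and 5023 to 5097 calls in P, RBPMS KD1 and MBNL KD against D1 and in P against RBPMS KD1.

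Same-numbered libraries did not deviate together (correlations of -0.0226 to 0.0695). With 3 libraries per group this cannot tell whether they were prepared in matched sets. With the replicate block, the calls over all genes were 4593, 730, 1634 and 4897 in the same order, and the enzymes called in the 3 tested comparisons were again 3, 0 and 3. All enzymes were far above the limit of 3 counts, so depth did not limit their detection.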
